A study of Mus musculus with 36 samples.

Results

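DNA replication and mitosis genes were followed in 36 RNA sequencing libraries of mouse motor neurons. A fixed list of 47 genes was matched by symbol, and all 47 were found among the 21761 genes in the files and passed the filter on low counts. They comprise 20 replication factors, 4 genes of S phase entry and methylation upkeep (E2f1, Ccne1, Ccne2 and Uhrf1), 22 mitotic genes and the proliferation marker Mki67. The neurons were differentiated from embryonic stem cells of the transgenic line Hlxb9-GFP1Tmj, with eGFP, alone or beside the surface antigen CD2, expressed from the mouse HB9 promoter (the gene is Mnx1, a transcription factor of motor neurons). Cells carrying CD2 were drawn out on a magnetic column and plated in medium conditioned by cultured astrocytes of newborn mice. On day 3 the groups were medium from astrocytes with the G93A mutant of SOD1 (mSOD1), from astrocytes over-expressing wild-type SOD1 (wtSOD1) and from non-transgenic astrocytes (NTg), with 6 libraries each. The same 3 media were read on day 1, again with 6 libraries each. All media contained added glucose, antibiotics, GDNF, BDNF and CNTF. The neurons themselves had the same genotype in every group, and purity rests on activity of the HB9 promoter at the time of the sort. Whether a library's medium came from spinal cord or cortical astrocytes is not stated by the labels. A time zero control was not analysed here. The labels number the libraries of each group as experiments 1 to 6, and nothing states that the numbers are separate differentiations, so p-values measure the spread between these libraries.

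A dividing cell copies its genome in S phase and separates the copies in mitosis. The MCM complex (Mcm2 to Mcm7) is loaded onto origins by Cdc6 and Cdt1, becomes an active helicase with Cdc45 and the GINS subunits, and is followed by polymerases, the sliding clamp Pcna and the enzymes that make nucleotides. Cyclin B with Cdk1 then drives entry into mitosis, where Aurora and Plk kinases, centromere proteins and checkpoint proteins act on the chromosomes. Many replication genes are controlled by E2F proteins, and many mitotic genes are controlled through a short element termed CHR together with CCAAT boxes. Neurons are textbook cells outside the cycle, so these transcripts are commonly read as a sign of cycling cells in a neuronal culture. In bulk RNA, fewer cycling cells and less of the transcript per cell cannot be told apart.

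The promoter letters of both kinds are shown beside the classes used in the results, which were set by the role of each gene and not by its letters. Whether the letters go with the changes in level was not tested. RefSeq promoters of the GRCm38.p6 build, each 300 bases with 250 before and 50 after the annotated start, were available for 38 of the 47 members (43 promoters, since some genes have more than 1). Each line gives a window of such a promoter on the gene's own strand, 5′ to 3′. In Mcm5, Mcm6 and Rrm1 the capitals mark E2F letters, and CCAAT letters inside the Mcm6 and Rrm1 windows are left in lower case. In Mcm2 the capitals mark CHR letters, in Cdk1, Top2a and Cdc20 CHR and CCAAT letters, and in Plk1 CCAAT letters. Further CHR and CCAAT letters of Top2a lie before its window.
Mcm5 (chr8:75109327-75109376, plus strand): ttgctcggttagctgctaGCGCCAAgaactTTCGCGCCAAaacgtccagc
Mcm6 (chr1:128359732-128359824, minus strand): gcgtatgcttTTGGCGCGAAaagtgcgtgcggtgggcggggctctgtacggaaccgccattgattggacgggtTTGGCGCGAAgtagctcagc
Rrm1 (chr7:102441595-102441644, plus strand): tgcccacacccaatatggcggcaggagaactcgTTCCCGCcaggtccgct
Mcm2 (chr6:88898835-88898884, minus strand): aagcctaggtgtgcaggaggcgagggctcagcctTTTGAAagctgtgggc
Cdk1 (chr10:69352913-69353130, minus strand): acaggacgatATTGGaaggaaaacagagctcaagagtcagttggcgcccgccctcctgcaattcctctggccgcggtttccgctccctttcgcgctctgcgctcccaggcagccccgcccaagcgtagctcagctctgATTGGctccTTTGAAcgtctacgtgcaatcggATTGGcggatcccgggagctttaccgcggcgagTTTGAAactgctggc
Top2a (chr11:99024197-99024297, minus strand): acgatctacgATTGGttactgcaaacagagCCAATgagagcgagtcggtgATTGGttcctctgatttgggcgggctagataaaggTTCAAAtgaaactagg
Cdc20 (chr4:118437344-118437406, minus strand): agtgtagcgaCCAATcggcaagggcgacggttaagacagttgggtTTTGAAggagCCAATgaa
Plk1 (chr7:122159385-122159434, plus strand): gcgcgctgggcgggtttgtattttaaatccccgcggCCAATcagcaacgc

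Every search covered both strands. The E2F letters were TTCCCGC or its close forms, which were the form TTGGCGC, then the form TTCGCGC, and finally the form TTGCCGC. The CHR letters were TTTGAA, and the box of the last search is spelled by its name, CCAAT. E2F letters were present in 12 of 18 replication promoters (66.7%) and in 4 of 20 mitotic promoters (20%), against 9.57% of all 32851 promoters in the table. CHR letters had the opposite distribution, with 3 of 18 replication promoters (16.7%) and 14 of 20 mitotic promoters (70%), against 17.9% of all promoters. CCAAT letters were found in 12 of 18 replication and 17 of 20 mitotic promoters, against 37.4% of all. E2F and CCAAT letters shared bases in 4 member promoters, of Ccnb1, Ect2 and Mcm7, while CHR letters shared none with either. The classes were not uniform. Mcm2, whose day 3 values are given further on, held CHR letters and no E2F letters, and Cdk1 held E2F letters as well, printed in lower case above. The CHR letters of Plk1 lay after the annotated start and so outside the window shown. A match in these windows is a description of the letters and not of a bound site.

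**Figure D1:**
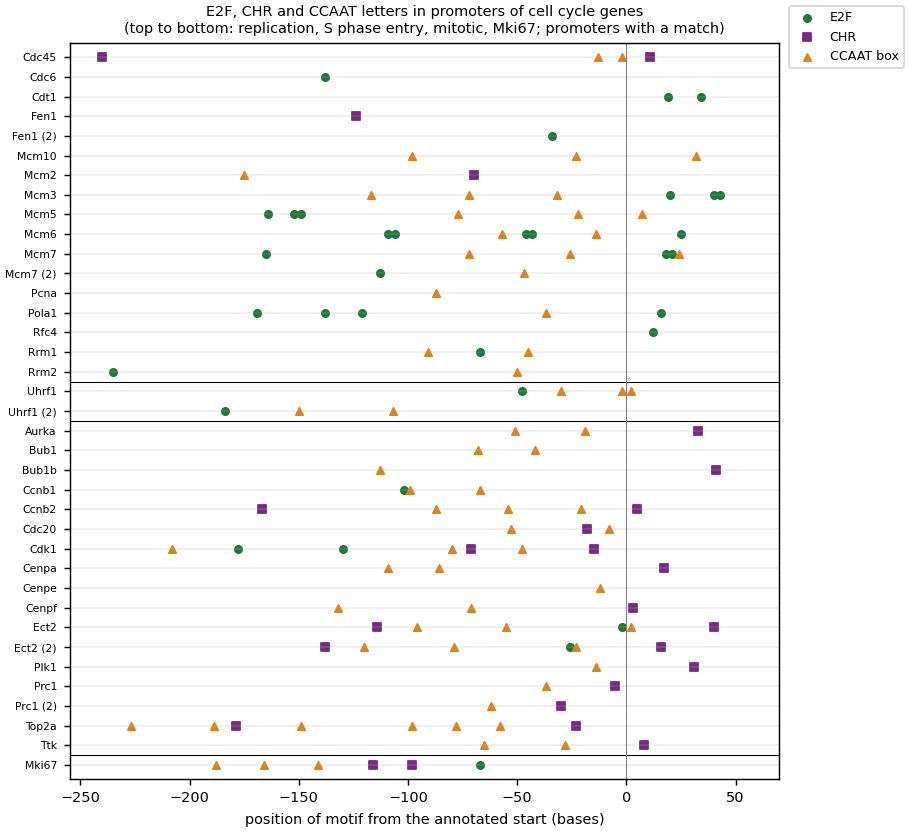
Positions of E2F, CHR and CCAAT letters in member promoters, in bases from the annotated start (0), with genes down the page by class and only promoters with a match drawn. E2F letters lie mostly in the replication block (12 of 18 promoters) and CHR letters mostly in the mitotic block (14 of 20).

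Sequencing depth was 4.39 to 88.9 M reads per library. The smallest library was NTg day 1 of experiment 6 and the largest wtSOD1 day 1 of experiment 4, and without both the members called higher on day 3 numbered 42 in mSOD1, 45 in wtSOD1 and 45 in NTg medium. Levels are counts per M reads (CPM) after TMM scaling, and log2 fold changes are given with their standard error. Adjusted p-values come from edgeR's quasi-likelihood test with Benjamini-Hochberg adjustment over 15207 tested genes, with calls at an adjusted p below 0.05. Each member had at least 28 reads in its lowest library. The motor neuron label was checked with Chat, which makes acetylcholine, and it stood at 34.7, 27.3 and 28.6 CPM per kb of exon in mSOD1, wtSOD1 and NTg medium on day 3, against 76.2, 78.8 and 78.1 CPM per kb on day 1. The transcription factors Mnx1 and Isl1 were likewise present in every group, at 15.4 and 22.6 CPM per kb in NTg medium on day 3 and at 49.9 and 63.6 CPM per kb on day 1. Cycling transcripts were thus measured in cultures that also contained the transcripts of motor neurons.

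The members were expressed over a wide range. Per kb of exon, replication factors on day 3 had median levels of 13.1 CPM per kb in mSOD1, 15.2 in wtSOD1 and 15.6 in NTg medium. Their highest was Rrm2, a subunit of ribonucleotide reductase, at 45.4, 54.4 and 51.9 CPM per kb in the same order of media. Their lowest was Gins2, a helicase subunit, at 3.27, 4.17 and 4.10 CPM per kb. Mitotic genes on day 3 had medians of 18.1, 21.5 and 21.5 CPM per kb in mSOD1, wtSOD1 and NTg medium. Top2a, the topoisomerase that untangles chromosomes, led them at 72.2, 92.0 and 88.7 CPM per kb, and the checkpoint gene Mad2l1 was lowest at 3.70, 4.24 and 4.37 CPM per kb. On day 1 the classes stood nearer to each other, with medians of 11.2 CPM per kb for replication factors and 9.90 CPM per kb for mitotic genes in NTg medium. Among entry genes, E2f1 was the lowest member of all on day 3 in NTg medium, at 3.78 CPM per kb.

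Between day 1 and day 3 nearly all members rose in every medium, and mitotic genes rose further than replication factors. In mSOD1 medium 42 of 47 members were higher on day 3, where 28.4% of all tested genes were called higher. In wtSOD1 medium 46 of 47 were higher, against 31.1% of all genes, and in NTg medium 45 of 47, against 30.8%. None was lower in any medium, 40 members were higher in all 3 media, and all 47 estimates were positive in each. No share of all genes is given for these last counts. The median log2 fold change of all tested genes was between -0.01 and 0.00. With the experiment number added to the fit as a block, the numbers were 46 in mSOD1, 47 in wtSOD1 and 47 in NTg medium, where 29.6%, 32.2% and 31.8% of all genes were called higher.

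Replication factors were higher on day 3 in 15 of 20 cases in mSOD1, 20 of 20 in wtSOD1 and 19 of 20 in NTg medium, with median log2 fold changes of 0.41, 0.60 and 0.57. Mcm2 (gene 17216), a helicase subunit, had a lowest, median and highest level of 75.1, 84.7 and 94.5 CPM in NTg medium on day 3, against 53.5, 58.5 and 65.9 CPM on day 1. These ranges did not overlap, and Mcm2 rose by 0.53 ± 0.08 (adjusted p 1.23e-07). In mSOD1 medium Mcm2 was at 56.0, 67.5 and 75.6 CPM on day 3 and 49.4, 56.7 and 67.8 CPM on day 1, which overlapped, with a change of 0.20 ± 0.08 (adjusted p 0.0234). Mcm5 (17218), from the same ring, had 53.6, 59.4 and 67.4 CPM on day 3 in NTg medium and 33.2, 39.8 and 48.0 CPM on day 1, and rose by 0.56 ± 0.09 (1.31e-06). Its change in mSOD1 medium was 0.18 ± 0.09 and did not pass (0.0983). Pcna (18538), the sliding clamp, had 59.8, 68.4 and 76.2 CPM on day 3 in NTg medium and 47.5, 52.6 and 56.6 CPM on day 1. Its groups were separate, and the rise was 0.41 ± 0.09 (9.55e-05), while in mSOD1 medium the estimate was 0.19 ± 0.09 (0.0625).

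The largest rise among replication factors in NTg medium was that of Cdc45 (12544), which completes the active helicase, with 16.2, 19.5 and 21.8 CPM on day 3 and 7.78, 9.93 and 15.2 CPM on day 1 (0.83 ± 0.13, 9.17e-07). Pole, the leading-strand polymerase, followed at 0.79 ± 0.10 and was the replication factor with the largest rise in mSOD1 (0.72 ± 0.11) and wtSOD1 medium (0.97 ± 0.10). Rrm1 (20133), the large subunit of ribonucleotide reductase, had 134, 159 and 174 CPM on day 3 in NTg medium and 92.1, 104 and 116 CPM on day 1 (0.59 ± 0.08, 2.13e-08). Gins1 (69270) changed least in NTg medium, with 9.43, 10.2 and 11.6 CPM on day 3 and 6.84, 8.67 and 10.7 CPM on day 1. Its ranges overlapped and the estimate of 0.22 ± 0.13 did not pass (0.137), although it passed with experiment as a block (0.0444). The 5 replication factors that did not pass in mSOD1 medium were Mcm5, Mcm7, Gins2, Pcna and Rfc4, with estimates from 0.17 to 0.28, and with experiment as a block Rfc4, of the clamp loader, remained the exception (adjusted p 0.11).

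By class median S phase entry genes rose least, with log2 fold changes of 0.37 in mSOD1, 0.41 in wtSOD1 and 0.43 in NTg medium. They were higher in 4 of 4 cases in mSOD1 medium and in 3 of 4 in each of wtSOD1 and NTg medium. Ccne1 (12447), the cyclin that works with Cdk2 at the start of S phase, had 32.8, 33.9 and 36.3 CPM in NTg medium on day 3, against 21.7, 24.4 and 26.0 CPM on day 1. These groups were separate, with a rise of 0.49 ± 0.07 (8.14e-08). Uhrf1 (18140), which maintains DNA methylation after replication, showed the largest rise of the class in NTg medium, with 60.3, 70.7 and 75.5 CPM on day 3 and 33.5, 44.7 and 52.7 CPM on day 1 (0.66 ± 0.10, 2.71e-07). The transcription factor E2f1 (13555) had 10.3, 11.4 and 13.9 CPM on day 3 in NTg medium and 8.36, 8.97 and 12.5 CPM on day 1. Its estimate was 0.25 ± 0.12 (0.0686) there, 0.25 ± 0.12 in wtSOD1 medium (0.0635), and 0.45 ± 0.12 in mSOD1 medium, where it passed (0.00242). The difference of E2f1 between the media in this time course was 0.20 ± 0.17 for mSOD1 over NTg and did not pass (0.636).

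Mitotic genes rose in 22 of 22 cases in each medium, with median log2 fold changes of 0.77 in mSOD1, 1.08 in wtSOD1 and 1.02 in NTg medium. Cenpe (229841), the kinetochore motor, rose most in NTg medium, with 82.2, 107 and 115 CPM on day 3 and 33.0, 43.0 and 53.5 CPM on day 1 (1.26 ± 0.10, 4.17e-13). Cdk1 (12534), the mitotic kinase, had 72.1, 85.4 and 92.2 CPM on day 3 in NTg medium, against 32.2, 34.8 and 41.6 CPM on day 1 (1.21 ± 0.09, 6.82e-14). Its partner Ccnb1 (268697), cyclin B1, had 51.0, 61.3 and 72.7 CPM on day 3 and 24.9, 30.1 and 35.9 CPM on day 1 (1.00 ± 0.12, 9.95e-09). For all 3 of these genes the highest day 1 library lay below the lowest day 3 library. Top2a (21973) had 376, 458 and 566 CPM on day 3 and 208, 240 and 266 CPM on day 1 in NTg medium, a rise of 0.96 ± 0.11 (1.45e-09). Mki67 (17345), the nuclear protein commonly stained to find dividing cells, had 226, 273 and 342 CPM on day 3 and 108, 130 and 152 CPM on day 1 (1.11 ± 0.11, 1.48e-10). In mSOD1 medium Cdk1 rose by 0.85 ± 0.09 (6.46e-10), Top2a by 0.74 ± 0.11 (3.93e-07) and Mki67 by 1.02 ± 0.11 (1.69e-09), and in wtSOD1 medium by 1.18 ± 0.09 (7.06e-14), 1.04 ± 0.11 (2.4e-10) and 1.23 ± 0.11 (1.14e-11).

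Plk1 (18817), a kinase of mitotic entry and spindle assembly, stood apart from its class in size. It had 105, 109 and 115 CPM on day 3 in NTg medium and 83.7, 90.4 and 96.4 CPM on day 1. The groups were separate, and the rise of 0.27 ± 0.04 (2.26e-07) was the smallest mitotic one in NTg medium. In mSOD1 and wtSOD1 medium the rise of Plk1 was 0.19 ± 0.04 (0.000111) and 0.28 ± 0.04 (9.79e-08), again the smallest of the 22. After Plk1, the smallest in NTg medium was Foxm1, a transcription factor of mitotic genes, at 0.78 ± 0.09. Exons of Plk1 overlap a gene on the opposite strand over 7.09% of their length in the GRCm38 annotation (GENCODE M21), and no source used here gives the strand setting of the counts.

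**Figure D2:**
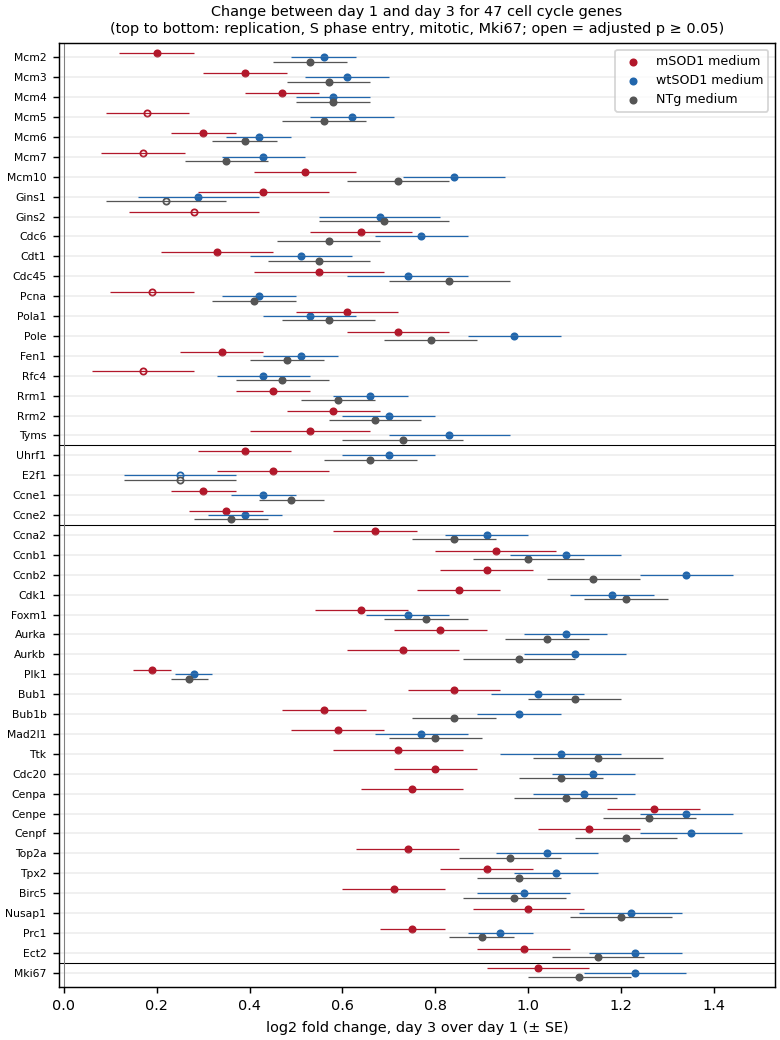
Log2 fold change (day 3 over day 1, ± SE) of each of the 47 members in mSOD1, wtSOD1 and NTg medium, with open circles where the adjusted p was 0.05 or above. Mitotic genes except Plk1 lie to the right of most replication factors, and the 5 open mSOD1 circles are all replication factors.

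**Figure D3:**
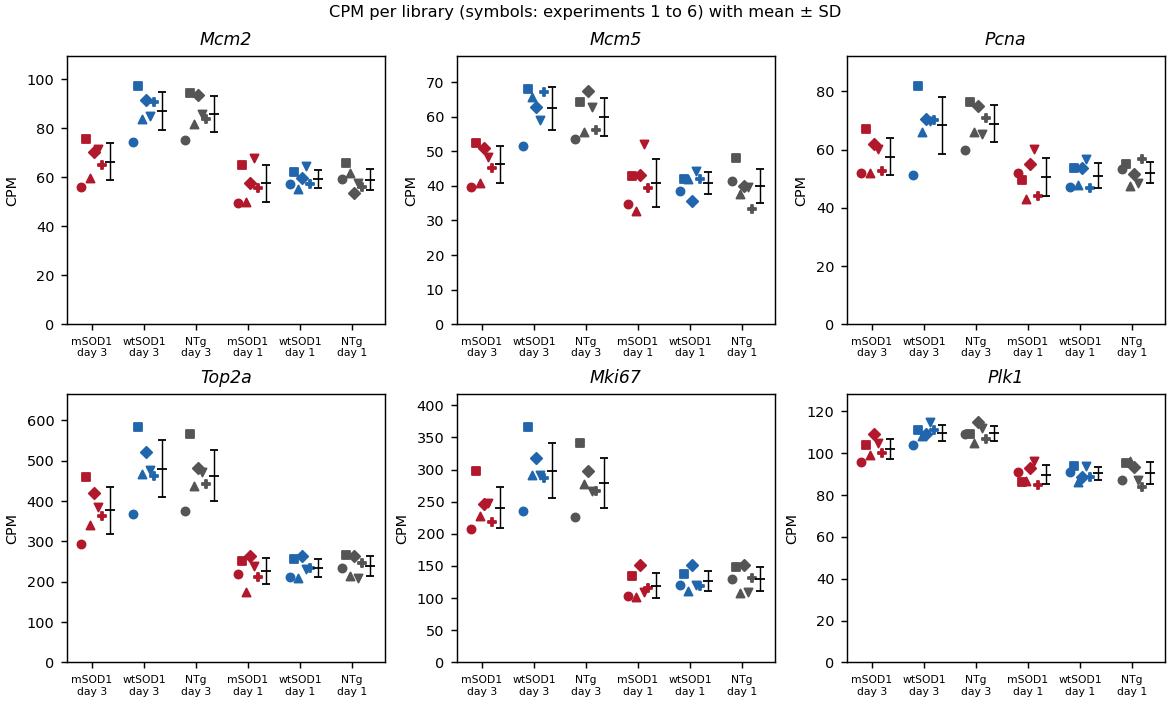
CPM of Mcm2, Mcm5, Pcna, Top2a, Mki67 and Plk1 in each of the 36 libraries, by group, with the mean ± SD over 6 libraries beside the points and 1 symbol per experiment. On day 3 the Top2a and Mki67 points lie above their day 1 points in every medium, and the mSOD1 points of Mcm5 (39.7 to 52.4 CPM) lie below every NTg point (53.6 to 67.4 CPM).

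The difference between the classes was also read within each library, as the mean log2 CPM of the 20 replication factors minus that of the 22 mitotic genes. On day 3 it was -0.80 ± 0.02 in mSOD1, -0.80 ± 0.03 in wtSOD1 and -0.77 ± 0.03 in NTg medium, and on day 1 it was -0.41 ± 0.05, -0.36 ± 0.05 and -0.35 ± 0.06 (SD, n = 6 each). The 18 day 3 values ran from -0.83 to -0.74 and the 18 day 1 values from -0.48 to -0.29, so the days did not overlap. No test is given for this score, since the members were chosen with earlier results known. Within same-numbered libraries of NTg medium the day 3 minus day 1 difference was 0.39 to 0.72 for replication factors and 0.73 to 1.14 for mitotic genes. In mSOD1 medium these ranges were 0.24 to 0.58 and 0.62 to 0.98, and in wtSOD1 medium 0.44 to 0.73 and 0.79 to 1.15. The mitotic difference was the larger in all 18 pairs.

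**Figure D4:**
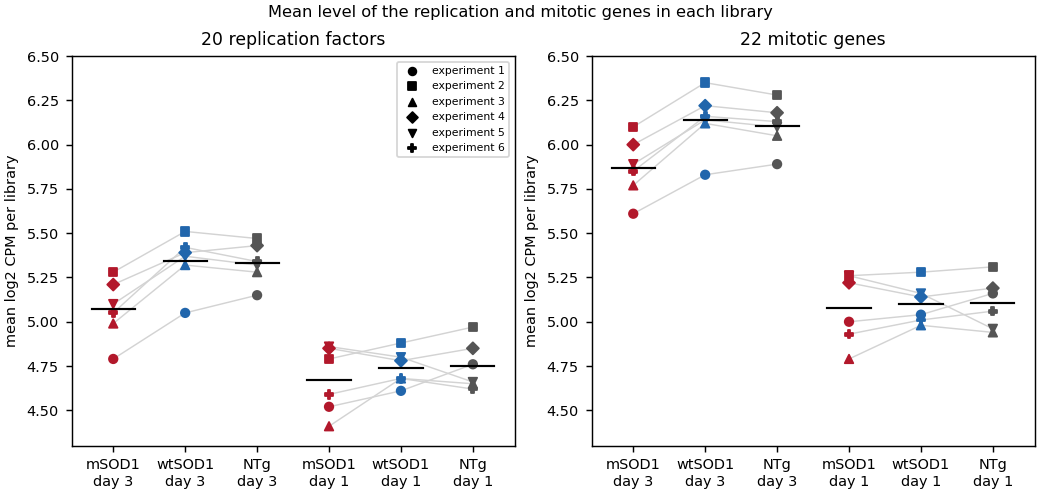
Mean log2 CPM of the 20 replication factors (left) and of the 22 mitotic genes (right) in each library, with a symbol per experiment, lines joining same-numbered libraries of a day and black bars at group means. On day 3 every mSOD1 symbol lies below the wtSOD1 and NTg symbols of its own experiment, in both panels.

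On day 3 the members were lower in mSOD1 medium than in either other medium, by a similar small amount in both classes, and few of them passed without the experiment as a block. Against NTg medium, Mcm2 and Mcm5 passed (2 of 47, where 0.684% of all tested genes were called lower). With experiment as a block 35 of 47 passed, against 3.48% of all genes, and with experiment as a block within each day 42 of 47, against 7.23%. The median log2 fold change was -0.24 over all members, -0.25 for replication factors and -0.24 for mitotic genes, with 46 of 47 estimates below 0 and 41 members lower in all 6 same-numbered pairs. In the unblocked fit 36 members had an unadjusted p below 0.05. The median of all tested genes was -0.01 in this comparison. Shares of all genes are not given for counts of signs, pairs or unadjusted p, here or below. Leaving out all libraries of experiment 3 or of experiment 6 left 0 members past the threshold, and leaving out experiment 4 left 1. Some estimates moved with the experiment left out, such as Gins1 (-0.24 to -0.13) and Uhrf1 (-0.34 to -0.25), and E2f1 changed sign (-0.06 to 0.07). With each experiment left out in turn, Mcm2 stayed between -0.39 and -0.35 (adjusted p 0.00424 to 0.0541) and Mcm5 between -0.39 and -0.36 (0.0228 to 0.107). Both were lower in all 6 pairs and passed with experiment as a block (1.81e-05 for Mcm2 and 0.00112 for Mcm5).

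Against wtSOD1 medium 9 of 47 members were lower on day 3 in mSOD1 medium, where 0.901% of all tested genes were called lower. They were the helicase subunits Mcm2, Mcm3, Mcm5 and Mcm6, Uhrf1, the cyclins Ccna2 and Ccnb2, the kinase Aurkb of the chromosomal passenger complex and the checkpoint kinase Bub1b. With experiment as a block 34 passed, against 3.45% of all genes, and with the block within each day 38, against 6.08%. All 47 estimates were below 0, with a median of -0.26, and 38 members were lower in all 6 pairs. The count changed with the experiments included. Without experiment 1 it was 16, without experiment 4 it was 3, and without experiment 3, 5 or 6 it was 2. Both comparisons use the same mSOD1 libraries and so are not independent of each other.

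Mcm2 had 56.0, 67.5 and 75.6 CPM in mSOD1 medium on day 3 as its lowest, median and highest level, against 74.5, 87.8 and 97.1 CPM in wtSOD1 and 75.1, 84.7 and 94.5 CPM in NTg medium. The ranges touched at 1 mSOD1 library, and Mcm2 was lower in all 6 pairs of both comparisons. It fell by 0.40 ± 0.07 against wtSOD1 (0.00127) and by 0.37 ± 0.07 against NTg medium (0.00522), a level of 0.774 times that in NTg medium. Mcm5 had 39.7, 46.8 and 52.4 CPM in mSOD1, 51.4, 64.3 and 67.9 CPM in wtSOD1 and 53.6, 59.4 and 67.4 CPM in NTg medium. Its mSOD1 libraries lay wholly below the NTg ones. Mcm5 fell by 0.43 ± 0.09 against wtSOD1 (0.0032) and by 0.37 ± 0.09 against NTg medium (0.0191).

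Other replication and entry genes had smaller or less certain differences. Pcna had 51.8, 56.5 and 66.9 CPM in mSOD1, 51.4, 70.1 and 81.8 CPM in wtSOD1 and 59.8, 68.4 and 76.2 CPM in NTg medium on day 3. Its estimates were -0.25 ± 0.09 against wtSOD1 (adjusted p 0.0902) and -0.26 ± 0.09 against NTg medium (0.0878), and both passed with experiment as a block (0.0133 and 0.00985). Rrm1 had 117, 135 and 155 CPM in mSOD1, 134, 161 and 178 CPM in wtSOD1 and 134, 159 and 174 CPM in NTg medium. It was -0.24 ± 0.08 against wtSOD1 (0.0646) and -0.21 ± 0.08 against NTg medium (0.111), and lower in all 6 pairs of each. With the block both of its differences passed (0.000637 and 0.00278).

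Uhrf1 had 49.6, 55.3 and 66.0 CPM in mSOD1 medium on day 3, 60.3, 74.4 and 78.2 CPM in wtSOD1 and 60.3, 70.7 and 75.5 CPM in NTg medium. It fell by 0.35 ± 0.09 against wtSOD1 medium (0.0293), and its estimate against NTg was -0.29 ± 0.09 (0.0838, and 0.00791 with the block). The other entry genes were nearer to 0. Ccne1 had 26.5, 30.5 and 32.7 CPM in mSOD1 and 32.8, 33.9 and 36.3 CPM in NTg medium, separate ranges, with an estimate of -0.19 ± 0.07 (0.105, and 0.0347 with the block). E2f1 had 10.7, 11.8 and 13.5 CPM in mSOD1 medium, 10.9, 12.6 and 13.8 CPM in wtSOD1 and 10.3, 11.4 and 13.9 CPM in NTg medium. Its estimates were -0.05 ± 0.12 and 0.01 ± 0.12, and the second turned to -0.01 without TMM scaling. Ccne2, the other cyclin E, was at -0.03 ± 0.08 against wtSOD1 and -0.02 ± 0.08 against NTg medium, and was lower in 3 of 6 pairs in each case.

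Among mitotic genes, Aurkb (20877) had 32.6, 42.0 and 48.3 CPM in mSOD1, 41.1, 56.6 and 60.5 CPM in wtSOD1 and 43.9, 54.3 and 58.6 CPM in NTg medium on day 3. It fell by 0.42 ± 0.11 against wtSOD1 medium (0.0266), and its estimate against NTg was -0.35 ± 0.11 (0.0783, and 0.0044 with the block). Ccna2 (12428), the cyclin of S phase and early mitosis, had 76.0, 83.6 and 99.0 CPM in mSOD1, 93.3, 107 and 125 CPM in wtSOD1 and 89.9, 101 and 113 CPM in NTg medium. It fell by 0.32 ± 0.09 against wtSOD1 (0.0346), and the NTg estimate was -0.23 ± 0.09 (0.129, and 0.00284 with the block). Bub1b (12236) had 38.4, 44.8 and 54.2 CPM in mSOD1 medium, 46.8, 58.7 and 64.5 CPM in wtSOD1 and 48.8, 53.7 and 61.9 CPM in NTg medium. It fell by 0.32 ± 0.09 against wtSOD1 (0.0373), while the NTg estimate of -0.24 ± 0.09 passed only with the block (0.127, and 0.00986 with it). In each of these genes the ranges of the media overlapped, yet the mSOD1 library was the lower in all 6 pairs.

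Top2a, the mitotic gene with the most reads, had 293, 374 and 460 CPM in mSOD1, 368, 473 and 584 CPM in wtSOD1 and 376, 458 and 566 CPM in NTg medium on day 3. Its estimates were -0.35 ± 0.11 against wtSOD1 (0.0561) and -0.30 ± 0.11 against NTg medium (0.111), and with experiment as a block they passed (7.5e-05 and 0.000853). Cdk1 had 55.7, 69.2 and 79.7 CPM in mSOD1, 67.4, 84.1 and 93.8 CPM in wtSOD1 and 72.1, 85.4 and 92.2 CPM in NTg medium. It stood at -0.27 ± 0.09 (0.0744) and -0.28 ± 0.09 (0.0748), both passing with the block (0.00179 and 0.00175). Mki67 had 208, 237 and 297 CPM in mSOD1, 235, 291 and 366 CPM in wtSOD1 and 226, 273 and 342 CPM in NTg medium. Its estimates of -0.31 ± 0.11 (0.107) and -0.21 ± 0.11 (0.281) passed only with experiment as a block (0.000616 and 0.0157). Ccnb1, at -0.21 ± 0.12 and -0.20 ± 0.12, and Plk1, at -0.10 ± 0.04 in both comparisons, passed in neither the unblocked fit nor the fit with experiment as a block. Both were nonetheless lower in all 6 pairs of each comparison and passed with the block within each day. Ccnb1 then had an adjusted p of 0.0218 against wtSOD1 and 0.0187 against NTg medium, and Plk1 of 0.0443 and 0.037. The other members followed the same direction. Mcm3 and Mcm6 fell by 0.32 ± 0.09 (0.0394) and 0.25 ± 0.07 (0.0407) against wtSOD1 medium, and Ccnb2, a second cyclin B, by 0.32 ± 0.09 (0.0407). Pole was at -0.34 ± 0.10 against wtSOD1 (0.055), Birc5 (survivin, of the passenger complex) at -0.33 ± 0.10 (0.0648) and the spindle factor Tpx2 at -0.26 ± 0.09 (0.0962), and all 3 passed with experiment as a block. The members that did not pass against NTg medium even with the block were Gins1, Gins2, Cdc6, Pola1, E2f1, Ccne2, Ccnb1, Foxm1, Plk1, Cenpe, Cenpf and Nusap1. Against wtSOD1 medium they were Gins1, Cdc45, Pola1, Rfc4, Tyms, E2f1, Ccne1, Ccne2, Ccnb1, Plk1, Bub1, Mad2l1 and Nusap1.

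The spread within a group followed the experiment on day 3, and day 1 was not counted in this way. On day 3 the library of experiment 1 was the lowest of its group for 44 of 47 members in mSOD1, 47 of 47 in wtSOD1 and 40 of 47 in NTg medium. The library of experiment 2 was the highest for 34, 39 and 35 members. Within same-numbered libraries, mSOD1 minus NTg differences of the class means ran from -0.36 to -0.19 for replication factors and from -0.28 to -0.18 for mitotic genes, and mSOD1 minus wtSOD1 differences from -0.37 to -0.18 and from -0.35 to -0.22. All 6 experiments had the same direction in both classes. The class means on day 3 were 5.07 ± 0.17 log2 CPM in mSOD1, 5.34 ± 0.16 in wtSOD1 and 5.33 ± 0.11 in NTg medium for replication factors, and 5.87 ± 0.17, 6.14 ± 0.17 and 6.10 ± 0.13 for mitotic genes (SD, n = 6 each).

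**Figure D5:**
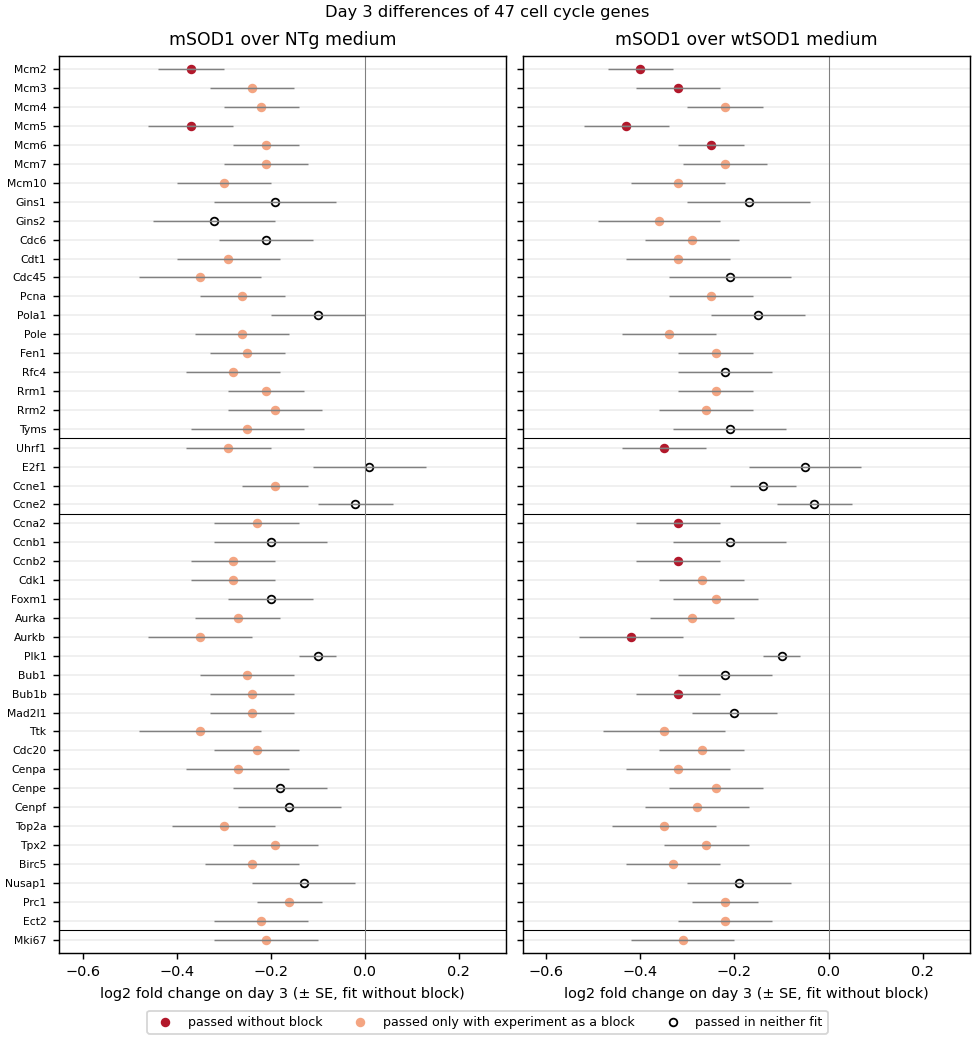
Log2 fold change (± SE) on day 3 of mSOD1 over NTg medium (left) and mSOD1 over wtSOD1 medium (right) for each member, filled dark where it passed without a block, light where it passed only with experiment as a block, and open where it passed in neither. All but E2f1 on the left lie below 0, and replication and mitotic genes cover the same range.

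Between wtSOD1 and NTg medium no member passed on either day. On day 3, 0 of 47 members passed between wtSOD1 and NTg medium with edgeR, where 0.0986% of all tested genes were called, and none had an unadjusted p below 0.05 or passed with DESeq2. The median log2 fold change was 0.03, and estimates ran from -0.14 (Cdc45) to 0.12 (Cenpf). By pairs, 5 members (Rrm1, Ccna2, Cenpf, Prc1 and Mki67) were higher in wtSOD1 medium in all 6 experiments and Cdc45 was lower in all 6, by small amounts, and 0 members passed with experiment as a block over all libraries or within each day. On day 1 none of the 47 passed in any comparison of media. Estimates were below 0 for 36 of 47 members in mSOD1 against NTg and for 34 in mSOD1 against wtSOD1 medium. For wtSOD1 against NTg medium the number was 28. For mSOD1 against wtSOD1 the background was 1.01% of all genes, 2 members had an unadjusted p below 0.05, and the median was -0.04. For mSOD1 against NTg it was 0.421%, with 2 members and a median of -0.06, and for wtSOD1 against NTg 0.0263%, with 0 members and a median of -0.01. DESeq2 also called 0 members in each day 1 comparison. Mcm2 on day 1 was at -0.04 ± 0.08 and Mcm5 at 0.01 ± 0.09 for mSOD1 over NTg medium, and the lowest day 1 estimate was that of Gins1, at -0.40 ± 0.14 (0.407).

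Whether the day 3 difference was larger than that of day 1 was tested as the interaction of time with medium. For mSOD1 against wtSOD1, 0 of 47 members passed (0.592% of all genes called), 11 had an unadjusted p below 0.05, DESeq2 called 1, and the median was -0.22. With experiment as a block 6 were lower (Mcm2, Mcm5, Ccnb2, Cdk1, Bub1b and Top2a), against 1.18% of all genes, and with the block within each day 19 were lower, against 3.45% of all genes. The 19 comprised 6 replication factors, 12 mitotic genes and Mki67. For mSOD1 against NTg, 0 passed (0.23% of all genes), 9 had an unadjusted p below 0.05, DESeq2 called 0, and the median was -0.19. With the block 3 were lower, namely Mcm2, Mcm5 and Cdk1, against 0.848% of all genes, and within each day 10, against 3.73% of all genes. Mcm5 had interaction estimates of -0.45 ± 0.13 against wtSOD1 (0.0857) and -0.39 ± 0.13 against NTg medium (0.191), and Mcm2 of -0.36 ± 0.11 (0.0974) and -0.33 ± 0.11 (0.181). For wtSOD1 against NTg 0 members passed, where 0.0197% of all genes did, with 0 at an unadjusted p below 0.05 and 0 by DESeq2.

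Further genes of the same machinery came from lists written with earlier results known. Shares of all genes called lower with time are not given for these lists or those below. With time, the other mitotic genes resembled the mitotic members. The other replication genes rose less than the member replication factors, whose medians were 0.41 in mSOD1, 0.60 in wtSOD1 and 0.57 in NTg medium. Of 40 other replication genes, 16 were higher and 2 lower on day 3 in mSOD1, 31 and 2 in wtSOD1, and 31 and 2 in NTg medium, with medians of 0.18, 0.34 and 0.31. In NTg medium Rpa1, which coats single-stranded DNA, rose by 0.81, the salvage kinase Tk1 by 0.71 and the checkpoint mediator Clspn by 0.89, while the origin recognition subunit Orc3 fell by 0.38. Of 48 other mitotic genes 45 were higher in each medium, with medians of 0.69, 0.95 and 0.92, including Anln (1.40), a cytokinesis protein, and the spindle proteins Ckap2 (1.45) and Ckap2l (1.44) in NTg medium. Against wtSOD1 medium on day 3, 4 other replication genes (Lig1, Pold1, Chaf1b and Pola2) and 4 other mitotic genes (Cenpn, Cdca8, Ncapd2 and Spc25) were lower in mSOD1 medium. Against NTg medium these numbers were 2 (Lig1 and Pold1) and 1 (Cdc25b). With experiment as a block, 16 and 31 were lower against wtSOD1 and 14 and 27 against NTg medium.

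Genes upstream of S phase also changed with time. Of 24 G1 regulators 17 were higher and 4 lower on day 3 in mSOD1 medium, 17 and 3 in wtSOD1, and 18 and 4 in NTg medium. The D cyclins, which start the passage through G1 with Cdk4 and Cdk6, were among those higher in NTg medium, with Ccnd2 up by 2.43 ± 0.08, Ccnd1 by 1.98 ± 0.10 and Ccnd3 by 1.12 ± 0.09, and Cdk6 up by 1.67 ± 0.13. Inhibitors of the cycle moved in both directions, with 12 of 16 higher and 3 lower in mSOD1 medium, and 12 higher and 4 lower in each of wtSOD1 and NTg medium. Those higher included Cdkn1a (1.23), Cdkn2b (1.56), Cdkn2a (1.80) and Ccng1 (1.41), a target of p53, in NTg medium. The 4 lower in NTg medium were Cdkn1c (18.6 ± 0.91 CPM on day 3 and 36.6 ± 8.0 CPM on day 1, SD, n = 6 each), Btg1 (-0.38), Fzr1 (-0.30) and Cdkn2d (-0.25). On day 1 Cdkn1a (p21) was higher in mSOD1 medium, by 0.27 ± 0.07 against wtSOD1 (0.0304) and 0.31 ± 0.07 against NTg medium (0.0125). Its difference on day 3 passed in neither comparison. Mybl2, a partner of the complex that acts on CHR elements, fell by 0.38 ± 0.10 in mSOD1 against wtSOD1 medium on day 3 (0.0235), and E2f2 by 0.54 ± 0.14 against NTg medium (0.0311).

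Markers of other cells also changed with time. Summed over 20 neural progenitor markers, the level on day 3 was 4132 to 5053 CPM in mSOD1, 4467 to 5212 in wtSOD1 and 4508 to 5298 in NTg medium, against 2381 to 3173, 2476 to 3044 and 2537 to 3080 CPM on day 1. In NTg medium 11 of these 20 were higher on day 3, where 30.8% of all tested genes were called higher. They included Nes (1.01), Sox2 (1.15) and Pax6 (1.25), while 4 of the 20 were lower. By mean level there, Id1 went from 23.3 CPM on day 1 to 11.7 CPM on day 3, and Id3 from 37.1 to 24.7 CPM. Vim (2208 CPM), Fabp7 (974 CPM) and Nes (930 CPM) made up most of the day 3 sum in NTg medium. Mesenchyme markers (14, of which 13 were tested) summed to 3111 to 3987, 2961 to 3787 and 3164 to 4218 CPM on day 3 and 1292 to 1886, 1250 to 1741 and 1177 to 1694 CPM on day 1, and all 13 were higher in NTg medium. Astrocyte markers (10) summed to 482 to 631, 509 to 662 and 512 to 702 CPM on day 3 and to 185 to 251, 198 to 259 and 183 to 260 CPM on day 1. In NTg medium on day 3, Slc1a3 (mean 213 CPM) and Aldh1l1 (133 CPM) made up most of the sum. Gfap, S100b and Aqp4 were at 1.02, 0.471 and 2.63 CPM there, and Slc1a2 fell from 69.6 CPM on day 1 to 35 CPM on day 3. The sum of the 15 motor neuron markers in the files ran the other way. It was 5657 to 8197, 4157 to 7034 and 4645 to 7235 CPM on day 3, against 9304 to 11175, 9393 to 10592 and 9472 to 10976 CPM on day 1. Of the 15, 14 were lower on day 3 in each medium, and the share of all genes called lower is not given. Nefh went up, with a mean of 47.9 CPM on day 1 and 59.2 CPM on day 3 in NTg medium. Pluripotent cell markers summed to at most 46.1 CPM in any day 3 library and 68.3 CPM in any day 1 library, oligodendrocyte lineage markers to at most 96.2 and 269 CPM, endothelial markers to at most 14.6 and 19.6 CPM, and microglia and macrophage markers to at most 20.9 and 51.6 CPM. Neural crest markers summed to 494 to 666, 545 to 765 and 512 to 763 CPM on day 3 and to 456 to 516, 431 to 474 and 460 to 505 CPM on day 1. No marker of these lists was at 0 in all 36 libraries.

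Between media on day 3 the same lists gave fewer calls. In mSOD1 against wtSOD1 medium 5 motor neuron markers were higher, among them Stmn2 (0.40 ± 0.08, 0.00197), and 1 progenitor marker, Msi1, was lower (-0.31 ± 0.09, 0.0467). Mesenchyme markers had 0 calls there. Of the 15 motor neuron markers, 14 estimates were above 0 and 1 below, both against wtSOD1 and against NTg medium. Their medians were 0.28 and 0.22. By mean level in mSOD1 against wtSOD1 medium, Chat (99.3 against 77.9 CPM) and Prph (537 against 405 CPM) were among those that differed more. Mnx1 (36.7 against 32.5 CPM), Isl1 (57.9 against 55.2 CPM) and Lhx3 (1.48 against 1.52 CPM) differed less. Shares of all genes called higher between media are not given. With experiment as a block, 9 motor neuron markers were higher, and 6 progenitor markers and 1 mesenchyme marker were lower. Against NTg medium 3 motor neuron markers were higher, 0 progenitor markers passed, and 2 mesenchyme markers, Col1a2 and Dcn, were lower. With the block these numbers were 7 higher, 6 lower and 5 lower. Tcfap2b, from the neural crest list, was lower in both comparisons (-1.20 ± 0.25 against wtSOD1, 0.00337, and -1.29 ± 0.25 against NTg, 0.00439). The part of these other cells in the results on replication and mitosis genes was not tested.

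Several member counts may hold reads of neighbouring genes, since the strand setting is not given. In the GRCm38 annotation, exons on the opposite strand overlap 78.8% of the exon length of Fen1, 70.7% of Gins2, 21.8% of Prc1, 13.4% of Rfc4, 10.8% of Mcm7, 10.5% of Ccne2 and 10.4% of Ccna2. The levels of Fen1 and Gins2 are uncertain for this reason. Mcm2, Mcm5, Pcna, Ccne1, Top2a, Cdk1, Ccnb1 and Mki67 had no such overlap listed.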

How the data were processed

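RNA of 36 libraries was sequenced, 6 per medium and day. The deposited tables hold counts of reads per gene and a log2-like variance-stabilised value by the authors, per the file headers. TopHat 1.3.3, DESeq and the mm9 build are named in the submitters' processing notes, while counter, gene annotation and strand setting were not given in the sources used here. Groups come from the labels. The members and all gene lists were chosen with earlier results of these data known. Genes were tested in R 4.3.3 with edgeR 4.0.16 (filterByExpr, TMM, a robust quasi-likelihood fit with 1 mean for each of 6 groups, leaving 30 residual degrees of freedom, and Benjamini-Hochberg adjustment over 15207 genes). The code was tested on simulated data. CPM used TMM-scaled library sizes, with a prior count of 2 on the log2 scale. The 7 rows without a symbol held 0.000516% of reads and were left out, and 1798 genes had no read.

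The main fit left the experiment number out. It gave all estimates, errors and adjusted p-values that are not marked with a block or another method. The labels give the shared number as an experiment, so same-numbered libraries were also compared as pairs and through a block. With group means subtracted, such pairs correlated at 0.24 on average on day 3, with 16 of 18 above 0.1. The day 1 mean was 0.132, with 11 of 18 above 0.1. Libraries with different numbers gave -0.0479 on day 3 and -0.026 on day 1. These correlations were read within a day, so the pairing of day 1 with day 3 libraries was not checked. Fits with this block are given beside the results. Other alternatives were RLE factors, library totals, no filter, a block within each day, leaving out experiments or the smallest and largest library, DESeq2 1.42.0, and limma 3.58.1 on the deposited log2 values.

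Values per library are given for Mki67, Mcm2, Mcm5, Pcna, Ccne1, Top2a, Cdk1, Ccnb1 and Plk1, for up to 6 members with the lowest p in a comparison of media, with and without the block, and for the largest and smallest change of each class in NTg medium. Other genes are given as counts with up to 4 examples of lowest p. Promoters (RefSeq, GRCm38.p6) and exon lengths and overlaps (GENCODE M21, GRCm38) were matched by symbol, and no coordinates were converted from mm9.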

Additional observations from a re-analysis of the deposited data

Results flagged for a closer look

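In 120 groups of 6 libraries examined for a single library far from the other 5, 4 stood out, where chance gives about 1 in 20. Of these, 3 were the wtSOD1 day 3 library of experiment 1, which had 29.2 CPM of Ccne1 against 33.1 to 35.1 CPM in the other libraries, 41.1 CPM of Aurkb against 55.3 to 60.5 CPM, and 7.68 CPM of Gins1 against 10.2 to 11.6 CPM. The wtSOD1 day 1 library of experiment 2 had 11.7 CPM of Gins1, against 6.93 to 8.69 CPM in the others of its group. Without experiment 1 in any group, 16 members were lower in mSOD1 than in wtSOD1 medium on day 3, against 9 with it.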

How the results depend on the processing

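The number of members higher on day 3 ranged from 40 to 46 in mSOD1, 45 to 47 in wtSOD1 and 45 to 47 in NTg medium over all alternatives. Day 3 differences between media depended on the pairing. For mSOD1 against NTg, 2 members were lower, 35 with experiment as a replicate block, 42 with the block within each day, 4 with DESeq2, and 0 to 2 when each experiment was left out. For mSOD1 against wtSOD1, 9 were lower, 34 with the block, 38 with the block within each day, 15 with DESeq2, 6 on library totals, and 2 to 16 with an experiment left out. For the interaction of time with mSOD1 against NTg, 0 became 3 with the block and 10 within each day. For that against wtSOD1, 0 became 6 and 19, 1 with DESeq2, and 0 to 1 with an experiment left out. The estimate for E2f1 in mSOD1 against NTg on day 3 was 0.01, turned to -0.01 on library totals, and ran from -0.06 to 0.07 with an experiment left out. Shares of all genes are not given for the counts with DESeq2, on library totals or with an experiment left out. Apart from the blocks, the causes were not tested. The smallest library limits precision for members with few reads, the lowest having 28 reads of Cdt1.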
